A study of Mus musculus with 12 samples.

Results

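Brown adipocytes are fat cells that burn lipid to make heat, and the genes that set them apart from white adipocytes were followed here in mouse mammary gland RNA. The set held 10 genes: Ucp1, Cidea, Fabp3, Cox8b, Cox7a1, Ppargc1a, Dio2, Elovl3, Cpt1b and Prdm16. Every probe set annotated to a listed gene was taken, which gave 20 of the 45037 probe sets of the table that are not controls. Of these, 19 were annotated to 1 gene only and covered 9 of the 10 genes. The single probe set for Cpt1b was also annotated to Chkb and Gm44502, so its values cannot be assigned to Cpt1b alone, and it is described as a shared probe set and left out of the counts of genes. Where a gene had several probe sets, the brightest on average over the 12 arrays stands for it.

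The samples were 12 expression arrays in 4 groups of 3. The groups were wild-type and progesterone receptor null mammary gland, each collected after 8 h or 24 h of progesterone. All mice were ovariectomized BALB/c females aged 10 weeks, and all groups, the null mice included, had received subcutaneous 17β-estradiol (100 ng) for 24 h, followed by the same amount of 17β-estradiol together with progesterone (2.5 ug). Each array held RNA of 1 pool of 3 mice, so the replicate is the pool. There was no group without progesterone, the labels do not say how the receptor gene was disrupted or which gland was taken, and the later mice had also received estradiol for longer. Genotype comparisons are therefore between mice that differ in the receptor under the same hormones. The P-values set each difference against the spread between pools of a group, estimated over all 4 groups of 3 pools.

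In brown fat, noradrenaline released by sympathetic nerves acts through beta-adrenergic receptors and cyclic AMP, which releases fatty acids from lipid droplets and raises transcription of the thermogenic genes. Fatty acids fuel the mitochondria and open uncoupling protein 1, the product of Ucp1, which lets protons return across the inner membrane without making ATP. Mouse mammary epithelium lies in a fat pad, and fat depots can hold Ucp1-expressing adipocytes among white ones. In these whole-gland samples, fewer cells of a type and less RNA per cell cannot be told apart.

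The sequences just before the start sites of 4 of these genes are shown because the members gave unlike values: Ucp1 and Fabp3 differed between genotypes at 8 h, Cox7a1 differed in the same direction without passing the test, and Dio2 differed in the other direction without passing it. The 250 bases before the RefSeq start site (build GRCm38.p6) were found for 7 of the 10 genes. Each is written 5′ to 3′ on the strand of the gene, with capitals marking 2 short motifs on either strand, the cyclic AMP response element half-site TGACG (reverse complement CGTCA, also where they overlap in the full element TGACGTCA) and the nuclear receptor half-site AGGTCA (reverse complement TGACCT). The windows are chr8:83290098-83290347 (plus strand) for Ucp1, chr4:130308488-130308737 (plus strand) for Fabp3, chr7:30183921-30184170 (plus strand) for Cox7a1 and chr12:90739039-90739288 (minus strand) for Dio2.
Ucp1: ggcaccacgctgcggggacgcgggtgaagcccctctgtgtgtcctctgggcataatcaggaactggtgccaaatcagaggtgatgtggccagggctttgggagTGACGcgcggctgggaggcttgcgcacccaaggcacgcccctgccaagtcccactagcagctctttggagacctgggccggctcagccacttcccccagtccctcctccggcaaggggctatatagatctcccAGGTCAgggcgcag
Fabp3: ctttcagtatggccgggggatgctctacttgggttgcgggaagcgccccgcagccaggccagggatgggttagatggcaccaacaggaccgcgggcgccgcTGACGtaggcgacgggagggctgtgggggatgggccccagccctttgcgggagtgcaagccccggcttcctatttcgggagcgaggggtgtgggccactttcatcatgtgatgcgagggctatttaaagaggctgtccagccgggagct
Cox7a1: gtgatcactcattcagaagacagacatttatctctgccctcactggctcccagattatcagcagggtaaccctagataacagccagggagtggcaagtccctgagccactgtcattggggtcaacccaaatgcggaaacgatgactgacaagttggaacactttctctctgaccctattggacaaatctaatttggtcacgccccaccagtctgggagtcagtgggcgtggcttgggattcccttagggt
Dio2: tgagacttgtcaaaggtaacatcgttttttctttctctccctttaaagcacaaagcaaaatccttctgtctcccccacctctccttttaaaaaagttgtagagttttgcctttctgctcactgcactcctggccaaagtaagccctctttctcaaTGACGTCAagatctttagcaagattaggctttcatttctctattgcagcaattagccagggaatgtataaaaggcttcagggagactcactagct
The Ucp1 window held TGACG beginning 147 bases before the start site and AGGTCA 14 bases before it. The Fabp3 window held TGACG 149 bases before the start site. The Dio2 window held the full TGACGTCA 95 bases before the start site and the TATA box letters TATAAA 30 bases before it. Neither capitalised motif occurred in the Cox7a1 window. Among the 7 windows, 4 held the half-site TGACG on either strand (Ucp1, Fabp3, Dio2 and Ppargc1a), against 17.77% of 32851 RefSeq windows of the same length. The full element TGACGTCA was in 1.546% of windows, AGGTCA in 14.02% and TATAAA on either strand in 12.37%. The letters AGAACA (reverse complement TGTTCT), a half-site read by progesterone and glucocorticoid receptors, were in 16.08% of windows and in 0 of the 7. These are matches of letters in one short window, and distal enhancers lie outside it.

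The values are on a log2 scale as deposited, so a difference of 1 is a doubling. The array medians lay between 5.84 and 5.91, and arrays of a group correlated at 0.965 to 0.993 over the 23709 probe sets tested, those whose value exceeded the median of the array on 3 or more of the 12 arrays. The 3 probe sets annotated to Pgr, the gene of the receptor that the null mice lack, did not go one way. The brightest was at 9.89 to 10.01 in wild type against 8.56 to 9.07 in null at 8 h, another was higher in null, at 6.79 to 6.93 against 4.62 to 5.02, and the last was below the filter. At 24 h the brightest was at 7.52 to 8.10 in wild type and 7.20 to 7.86 in null, with overlap. Which part of Pgr was removed is not given, so these probe sets cannot check the labels. All 12 epithelial markers and all 13 white adipocyte markers with a probe set were above the array median on every array.

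At 8 h of progesterone, the wild-type gland held less Ucp1, Cidea and Fabp3 RNA than the receptor-null gland, by 3.91-fold, 3.16-fold and 5.04-fold. Cox7a1 and Elovl3 showed the same direction with groups that did not overlap, but did not pass the test. Ppargc1a, Dio2, Prdm16 and the oxidase subunit gene Cox8b overlapped between genotypes on the probe sets that stand for them. The dimmer Prdm16 probe sets, described below, did not overlap. In all, 3 of the 9 genes were called lower in wild type and 0 higher (limma, Benjamini-Hochberg adjusted over all probe sets tested), where 1.42% of all 12002 genes tested were called in that direction and 3.00% in either. Of the 9, 7 had a difference below 0, and the median log2 difference, wild type minus null, was -1.18, beside 0.01 over all genes tested. The groups did not overlap, with null higher, for 5 of the 9 genes, against 11.2% of all genes tested.

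**Figure D1:**
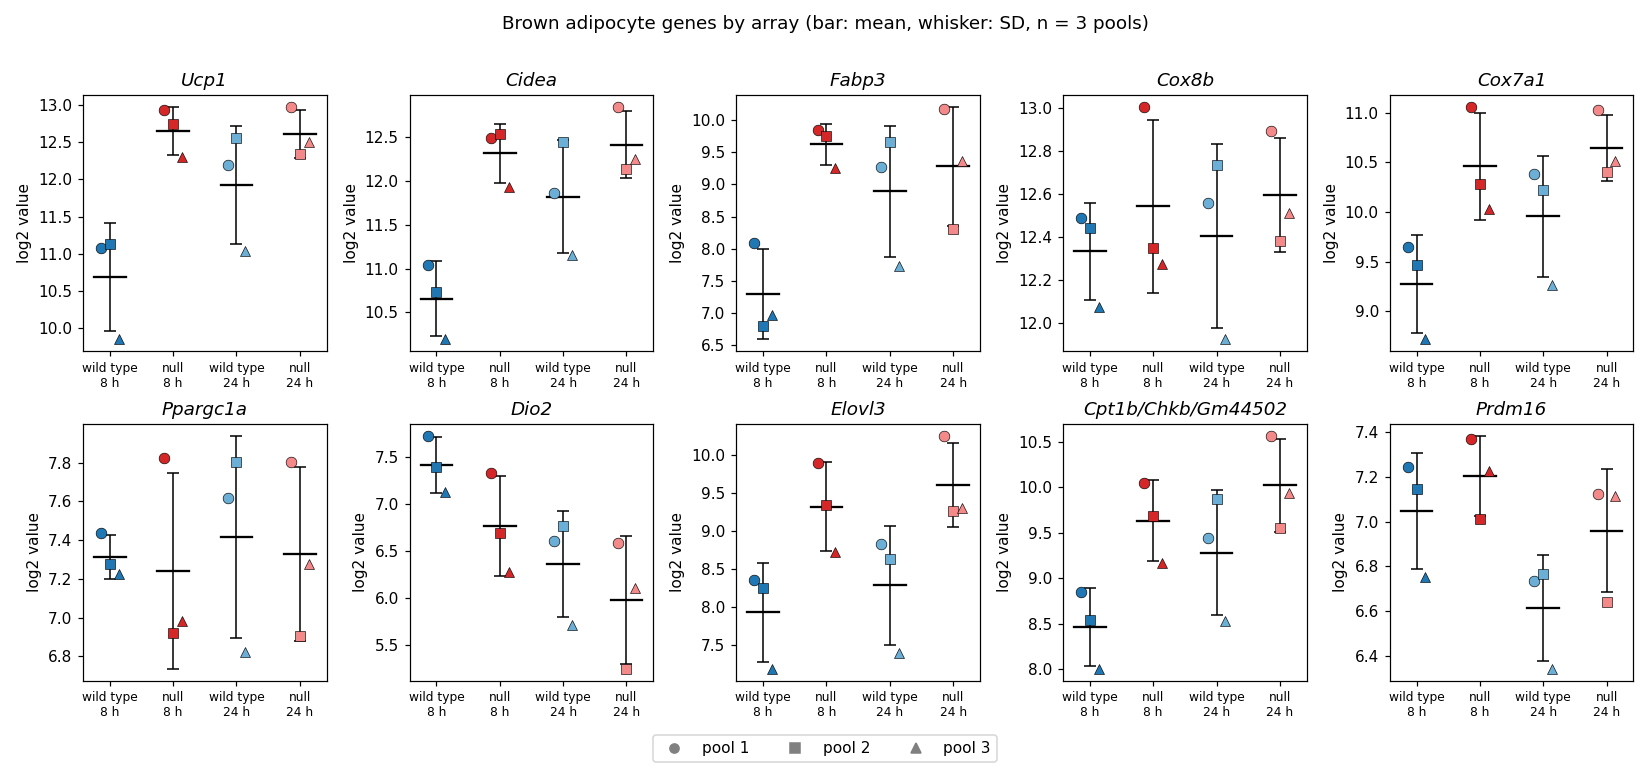
Deposited log2 value (vertical axis) of the representing probe set of each brown adipocyte gene, and of the probe set shared by Cpt1b, Chkb and Gm44502, on each of the 12 arrays, grouped by genotype and hours of progesterone; points are pools, bars group means and whiskers the SD of 3 pools. Ucp1, Cidea and Fabp3 are lowest in the wild-type 8 h group, while Dio2 is highest there.

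Ucp1, the uncoupling protein itself, read 11.08, 11.13 and 9.85 on the 3 wild-type arrays at 8 h and 12.93, 12.74 and 12.29 on the 3 null arrays. Every null pool lay above every wild-type pool, and wild-type pool 3 was the lowest of all 12 arrays. The means were 10.69 ± 0.72 and 12.65 ± 0.32 (SD, n = 3 pools each), a log2 difference of -1.97 (SE 0.40, 95% confidence interval -2.84 to -1.09, adjusted p = 0.0216, limma).

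Cidea encodes a lipid droplet protein of brown adipocytes that promotes droplet fusion. It read 11.05, 10.74 and 10.19 in wild type and 12.49, 12.53 and 11.93 in null at 8 h. The groups were separated by more than the spread within either, and the order of the pools in wild type again ended with pool 3. The log2 difference was -1.66 (SE 0.32, interval -2.36 to -0.96, adjusted p = 0.0166, limma).

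Fabp3 encodes the fatty acid binding protein of heart and muscle, which brown adipocytes also use to carry fatty acids inside the cell. Its brighter probe set read 8.10, 6.80 and 6.97 in wild type and 9.85, 9.76 and 9.26 in null at 8 h. Wild-type pool 1 stood above the other two wild-type pools and below every null pool. The log2 difference was -2.33 (SE 0.54, interval -3.52 to -1.15, adjusted p = 0.0418, limma). The other Fabp3 probe set was dim (4 group means between 5.36 and 5.60) and did not pass the filter.

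These 3 calls rest on few pools. Ucp1 was no longer called when 1 of these 8 h pools was left out: pool 3 of wild type (adjusted p = 0.0587, limma), pool 1 of null (0.0730) or pool 2 of null (0.0847), and its log2 difference stayed between -2.19 and -1.55 whichever of the 12 arrays was left out. Among the 8 h pools, Cidea was lost without pool 2 (0.0570) or pool 3 (0.0577) of wild type and without pool 1 (0.0561) or pool 2 (0.0779) of null, with differences between -1.85 and -1.42. Fabp3 was lost without 5 of the 8 h pools, which were pool 2 (0.162) and pool 3 (0.112) of wild type and pool 1 (0.114), pool 2 (0.141) and pool 3 (0.0810) of null, and without 2 of the 24 h pools, pool 1 of wild type (0.0525) and pool 3 of null (0.0577), with differences between -2.74 and -2.09. Leaving out any of 3 pools (pool 3 of wild type, pool 1 or pool 2 of null, all at 8 h) left no member called, and 1 (Ucp1) was called without wild-type 8 h pool 2.

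Cox7a1 and Cox8b encode the heart and muscle type isoforms of cytochrome c oxidase subunits, which brown adipocytes also make. Cox7a1 read 9.65, 9.47 and 8.72 in wild type at 8 h and 11.06, 10.28 and 10.03 in null. The genotypes did not overlap, yet the spread within each was large beside the gap, and the log2 difference of -1.18 (2.27-fold lower in wild type, SE 0.35) had an adjusted p of 0.105. Cox8b read 12.49, 12.44 and 12.08 in wild type and 13.01, 12.35 and 12.27 in null. These ranges overlapped, and the log2 difference of -0.21 had a 95% interval of -0.73 to 0.31 (adjusted p = 0.749, limma). That interval excludes a fall as large as the one measured for Ucp1, but the difference between the genes was not itself tested. The ubiquitous relatives differed little: the log2 difference at 8 h was -0.07 (SE 0.07) for Cox7a2 and -0.15 (SE 0.09) for Cox8a, neither called. Cox6a2, another muscle type oxidase subunit, had a difference in the opposite direction, 1.08 (SE 0.64, adjusted p = 0.459).

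Elovl3 encodes an elongase of very long chain fatty acids that is induced in brown fat by cold. It read 8.36, 8.25 and 7.19 in wild type at 8 h and 9.89, 9.34 and 8.73 in null, with no overlap. The log2 difference was -1.39 (2.62-fold lower in wild type, SE 0.44) with an adjusted p of 0.140 (limma). Elovl6, a relative that elongates shorter fatty acids, had a log2 difference of -0.36 (SE 0.17, adjusted p = 0.331). The probe set shared by Cpt1b, the muscle and brown fat form of the enzyme that admits fatty acids to mitochondria, with Chkb and Gm44502 read 8.85, 8.54 and 8.01 in wild type and 10.05, 9.69 and 9.17 in null. It too did not overlap, with a log2 difference of -1.17 (2.25-fold lower, SE 0.36) and an adjusted p of 0.128. The liver form, Cpt1a, read higher in wild type by a log2 difference of 0.25 (SE 0.25, adjusted p = 0.702).

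None of Ppargc1a, Dio2 and Prdm16 was called at 8 h. Ppargc1a, a coactivator of mitochondrial biogenesis, was covered by 5 probe sets, all tested. The brightest read 7.44, 7.28 and 7.22 in wild type and 7.83, 6.92 and 6.98 in null at 8 h, a log2 difference of 0.07 (95% interval -0.59 to 0.73, adjusted p = 0.948, limma). Null pool 1 was the highest and the other null pools the lowest, so the wild-type values lay inside the null range. Ppargc1b, its close relative, had a difference of 0.07 (SE 0.20).

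Dio2 encodes the deiodinase that makes active thyroid hormone inside brown adipocytes and is a target of cyclic AMP. Its brightest probe set read 7.72, 7.39 and 7.13 in wild type and 7.33, 6.69 and 6.28 in null at 8 h. Here the wild-type values were the higher, with overlap, and the log2 difference of 0.64 (1.56-fold, 95% interval -0.17 to 1.46) had an adjusted p of 0.447 (limma). The other 2 Dio2 probe sets were below the filter, with every array between 4.15 and 5.80.

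Prdm16 encodes a transcriptional co-regulator of brown adipocyte identity. Its brightest probe set read 7.24, 7.14 and 6.75 in wild type and 7.37, 7.01 and 7.23 in null at 8 h, with overlap and a log2 difference of -0.16 (95% interval -0.54 to 0.23, adjusted p = 0.749, limma). A dimmer tested probe set (1440745_at) read 5.59, 5.49 and 5.55 against 6.41, 5.82 and 6.01, a log2 difference of -0.54. It exceeded the array median on 3 arrays, all of them null, so it passed the filter through the genotype where it was higher, and its difference is given as a description. Another (1429308_at), left out by the filter, read 4.20, 4.07 and 3.91 against 5.92, 5.64 and 5.71. The fourth, also below the filter, had a log2 difference of -0.17. Unlike the brightest, each of these dimmer probe sets had every null pool above every wild-type pool at 8 h. The probe sets of Prdm16 therefore disagree on the size of the difference, and the brightest, which stands for the gene in the counts, has the smallest.

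**Figure D2:**
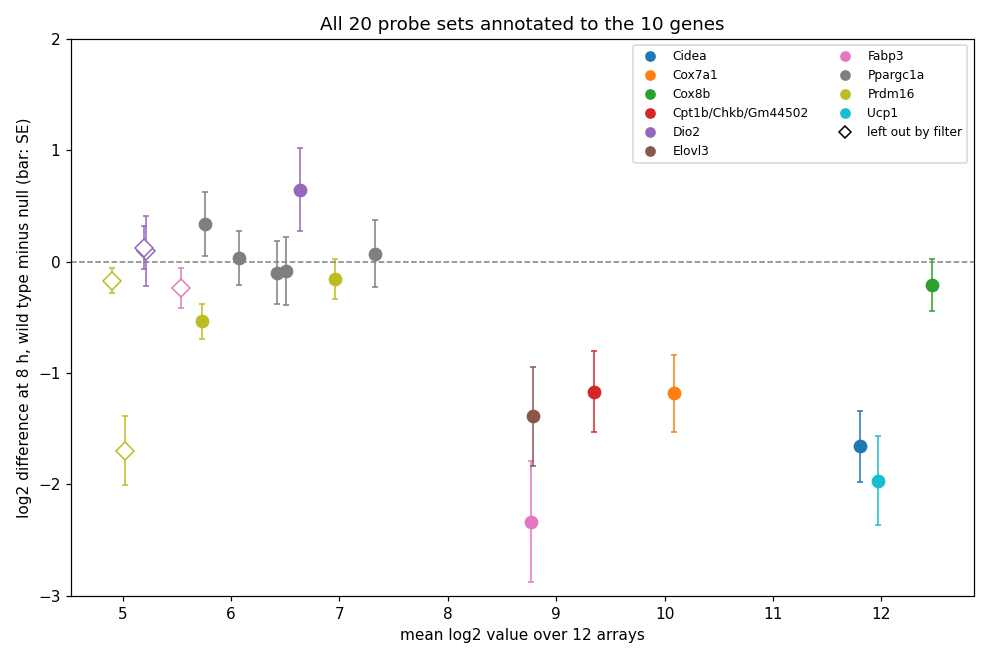
Log2 difference, wild type minus null, at 8 h (vertical axis, bars are SE) against the mean log2 value over 12 arrays (horizontal axis) for all 20 probe sets of the 10 genes; open symbols were left out by the filter. The largest fall among tested probe sets is that of Fabp3 at -2.33, the Ppargc1a probe sets lie around 0, and one dim Prdm16 probe set lies at -1.70.

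At 24 h of progesterone no member was called between genotypes: 0 of 9 in either direction (limma, 1 of 9 at an unadjusted p below 0.05), where 1.30% of all genes tested were called. Again 7 of 9 had a difference below 0, with a median of -0.39 beside 0.01 over all genes tested. This median was -0.78 without pool 2 and -0.21 without pool 3 of wild type at 24 h, -0.73 without pool 2 of null at 24 h, and -0.16 with arrays weighted by quality. The groups did not overlap, with null higher, for 2 of the 9 (Cox7a1 and Elovl3), against 5.65% of all genes tested.

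Ucp1 read 12.20, 12.55 and 11.04 in wild type at 24 h and 12.97, 12.35 and 12.50 in null. Wild-type pool 3 stood well below the rest and wild-type pool 2 inside the null range, so the genotypes overlapped. The log2 difference was -0.68 (95% interval -1.55 to 0.20, adjusted p = 0.501, limma).

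Cidea read 11.87, 12.44 and 11.16 in wild type and 12.85, 12.14 and 12.25 in null at 24 h, with the same pool lowest (log2 difference -0.59, interval -1.29 to 0.11, adjusted p = 0.452). Fabp3 read 9.27, 9.66 and 7.74 in wild type and 10.17, 8.31 and 9.36 in null at 24 h. Its pools spread over more than 1.5 log2 units in each genotype, and the log2 difference of -0.39 had an interval of -1.58 to 0.80 (adjusted p = 0.819, limma), which turned to 0.19 without wild-type pool 3 and to 0.06 without null pool 1.

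Elovl3 had a difference at 24 h close in size to that at 8 h. It read 8.83, 8.63 and 7.40 in wild type and 10.25, 9.26 and 9.30 in null, with every null pool higher. The log2 difference was -1.32 (2.49-fold lower in wild type, SE 0.44, unadjusted p = 0.0123, adjusted p = 0.219, limma). Cox7a1 read 10.38, 10.22 and 9.26 in wild type and 11.02, 10.40 and 10.51 in null, a log2 difference of -0.69 (SE 0.35, adjusted p = 0.412). The gap between wild-type pool 1 and null pool 2 was narrow. The probe set shared with Chkb and Gm44502 read 9.45, 9.87 and 8.53 in wild type and 10.56, 9.56 and 9.94 in null, with overlap.

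The remaining members overlapped at 24 h. Cox8b read 12.56, 12.74 and 11.92 in wild type and 12.89, 12.38 and 12.51 in null. Ppargc1a read 7.62, 7.81 and 6.82 in wild type and 7.80, 6.91 and 7.28 in null. The 2 genotypes covered nearly the same range for Ppargc1a, while for Cox8b wild-type pool 3 lay below every null pool and the other wild-type pools inside the null range. Dio2 read 6.61, 6.77 and 5.72 in wild type and 6.59, 5.25 and 6.11 in null, and Prdm16 6.74, 6.76 and 6.34 against 7.12, 6.64 and 7.11. Their log2 differences were 0.38 (SE 0.37) and -0.35 (SE 0.18), and neither passed the test.

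**Figure D3:**
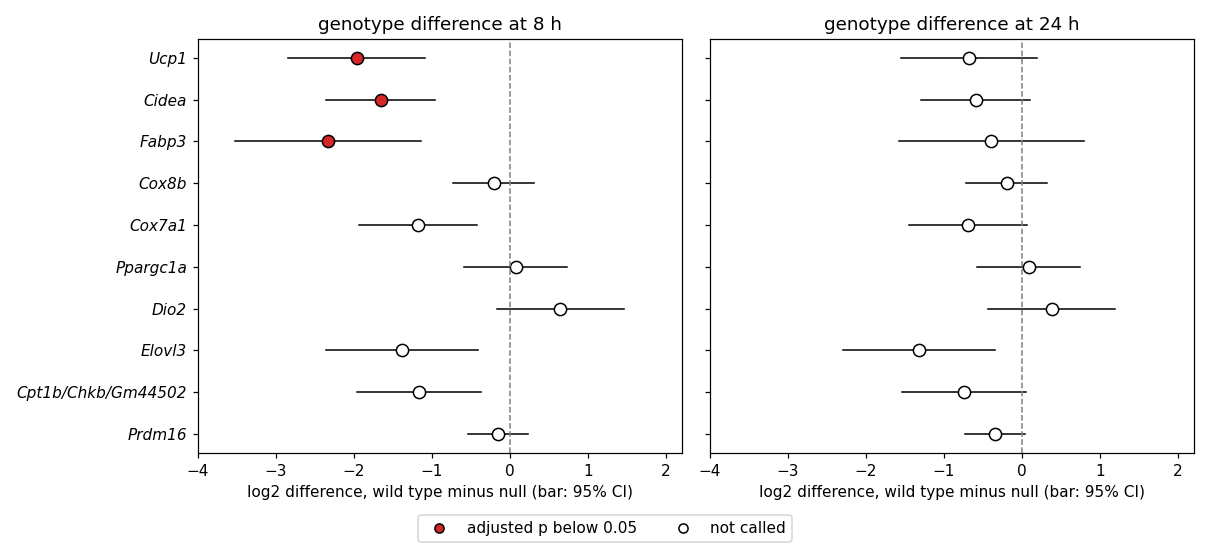
Log2 difference, wild type minus null, of each brown adipocyte gene and of the shared Cpt1b probe set at 8 h and at 24 h of progesterone, with 95% confidence intervals from limma. At 8 h the intervals of Ucp1, Cidea and Fabp3 lie furthest below 0, and at 24 h the interval of Elovl3 is the only one of the 9 genes that does not reach 0.

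Whether the genotype difference itself changed between 8 h and 24 h was tested as an interaction, and no member was called (0 of 9, limma, 3 of 9 at an unadjusted p below 0.05), where 0.133% of all genes tested were called. The 3 were Ucp1, Cidea and Fabp3. The change in the log2 difference was 1.29 for Ucp1 (95% interval 0.05 to 2.53, adjusted p = 0.861), 1.07 for Cidea (0.08 to 2.06, adjusted p = 0.830) and 1.94 for Fabp3 (0.26 to 3.62, adjusted p = 0.761). The other 6 members changed by between -0.26 and 0.49. So the call of these genes at 8 h and its absence at 24 h do not show that the effect of genotype differed between the times.

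Within wild type, no member was called between 8 h and 24 h (0 of 9, limma, 5 of 9 at an unadjusted p below 0.05), where 5.27% of all genes tested were called. Low unadjusted p-values were common here: a limma p of 0.0455 ranked 4864 among the 23709 probe sets tested. This comparison uses the same wild-type 8 h arrays as the genotype comparison at 8 h, so these comparisons are not independent. Ucp1 was higher at 24 h by a log2 difference of 1.24 (SE 0.40, adjusted p = 0.0986), Cidea by 1.16 (SE 0.32, adjusted p = 0.0588) and Fabp3 by 1.60 (SE 0.54, adjusted p = 0.114). Of the 9 members, the wild-type groups did not overlap, with 24 h higher, for Cidea alone, against 10.1% of all genes tested. Wild-type 24 h pool 3 decided this comparison: without it all 3 were called, with adjusted p of 0.0348 for Ucp1, 0.0275 for Cidea and 0.0439 for Fabp3 (limma).

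Dio2 went the other way in wild type, with every 24 h pool below every 8 h pool and a log2 difference of -1.05 (SE 0.37, adjusted p = 0.128), a separation that 16.1% of all genes tested showed in this direction. Prdm16 had a difference of -0.43 (SE 0.18, adjusted p = 0.182). Neither passed the test. The other 4 members lay between 0.07 and 0.68.

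Within the null, no member was called either (0 of 9, limma, 0 of 9 at an unadjusted p below 0.05), where 4.57% of all genes tested were called. The differences ran from -0.79 for Dio2 to 0.28 for Elovl3, with a median of 0.05. Ucp1, at a mean of 12.65 at 8 h and 12.60 at 24 h, moved by less than the spread of either group.

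The members varied together between pools of the same group. Wild-type pool 3 was the lowest of its group for 8 of 9 genes at 8 h and for 9 of 9 at 24 h. Null pool 1 was the highest of its group for 8 of 9 at 8 h and for 9 of 9 at 24 h, and null pool 2 the lowest for 9 of 9 at 24 h. The mean log2 value over the 9 genes was 9.24, 8.96 and 8.46 in the wild-type 8 h pools, 10.20, 9.74 and 9.45 in null at 8 h, 9.56, 9.73 and 8.60 in wild type at 24 h and 10.19, 9.29 and 9.66 in null at 24 h. The 8 h groups did not overlap on this mean and the 24 h groups did. Over the 12 arrays, Pearson's r with Ucp1 was 0.98 for Cidea, 0.95 for Cox7a1, 0.91 for Fabp3 and 0.91 for Elovl3. It was 0.70 for Cox8b, 0.34 for Prdm16, 0.33 for Ppargc1a and -0.26 for Dio2. These correlations share the group differences and the arrays, and are given as a description.

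Outside the set, 10 genes had values that most resembled the standardized mean of the members over the 12 arrays by Pearson's r. Uqcr10 (r = 0.97) and Uqcrfs1 (0.96) encode complex III subunits, Dlst (0.96) a subunit of the oxoglutarate dehydrogenase complex, and Ucp3 (0.96) an uncoupling protein relative best known in muscle. The others among the first 10 were Dglucy (0.96), Letmd1 (0.95), Samm50 (0.95), the acylcarnitine carrier Slc25a20 (0.95), the ATP synthase subunit gene Atp5j2 (0.94) and Chchd10 (0.94). None of the 10 was called between genotypes at 8 h; the log2 difference was -0.31 for Uqcr10, -0.25 for Ucp3 and -0.74 for Letmd1. The closest to Ucp1 alone were Acot11 (0.95), Aspg (0.95), Otop1 (0.95), the isocitrate dehydrogenase subunit gene Idh3b (0.94) and B330016D10Rik (0.93). Of these, Acot11, Aspg and B330016D10Rik were called lower in wild type at 8 h, with log2 differences of -2.12, -1.37 and -1.53 (adjusted p = 0.0152, 0.0302 and 0.0214, limma). Genes picked for likeness to Ucp1 over these same arrays share its genotype gap at 8 h. Their calls therefore follow from the choice and are given as a description.

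A further list of 20 tested genes enriched in brown fat mostly read lower in wild type. At 8 h 3 were called lower in wild type and 0 higher, where 1.42% of all genes tested were called lower. Of the 20, 18 had a difference below 0, and the median was -0.57. The called genes were Acot11, an acyl-CoA thioesterase (4.35-fold lower, adjusted p = 0.0152), the neurotrophin receptor gene Ntrk3 (2.02-fold, adjusted p = 0.00628) and Sirt3, a mitochondrial deacetylase (1.42-fold, adjusted p = 0.0303, limma). At 24 h 0 of 20 were called (7 at an unadjusted p below 0.05), 20 of 20 lay below 0 and the median was -0.54. From 8 h to 24 h in wild type 13 of the 20 lay above 0, with a median of 0.24 (limma, 8 of 20 at an unadjusted p below 0.05). Of the 20, 1 was called, where 5.27% of all genes tested were called: Ntrk3 rose by 1.81-fold (adjusted p = 0.0158, limma).

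Genes that carry the signal into brown adipocytes were counted in the same way. None of 10 tested genes of adrenergic and thyroid hormone input was called between genotypes (limma, 2 at an unadjusted p below 0.05 at 8 h and 4 at 24 h), with medians of -0.08 and -0.15. The share of all genes tested that was called, in either direction, was 3.00% at 8 h and 1.30% at 24 h. Prkaca, the catalytic subunit of protein kinase A, fell from 8 h to 24 h in wild type by 1.37-fold (adjusted p = 0.0175, limma). It was the only 1 of the 10 called there, where 5.27% of all genes tested were called. Among 29 genes of thermogenic transcription control, 2 were called at 8 h, both higher in wild type: Rxra, a retinoid receptor that partners other nuclear receptors (1.31-fold, adjusted p = 0.0199), and Klf15, a regulator of fuel use (1.45-fold, adjusted p = 0.0253). Over all genes tested, 3.00% were called at 8 h in either direction. At 24 h 0 of 29 were called (6 at an unadjusted p below 0.05). Over time 2 of 29 were called in wild type, where 5.27% of all genes tested were called: Cebpb (1.54-fold) and Irf4 (1.80-fold) fell. In null Cebpb fell (1.61-fold) and Klf15 rose (1.62-fold), where 4.57% of all genes tested were called.

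Of 10 beige adipocyte markers, Cited1 was 9.35-fold higher in wild type (adjusted p = 0.000514) and Shox2 1.52-fold lower (adjusted p = 0.0158) at 8 h, and 0 were called between genotypes at 24 h (limma, 2 at an unadjusted p below 0.05). Over all genes tested, 3.00% were called at 8 h and 1.30% at 24 h, in either direction. Cited1 is also a co-regulator made by mammary epithelium, and its value was not assigned to one cell type.

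Genes of the machinery that burns fatty acids nearly all read slightly lower in wild type, and none passed the test. Of all genes tested, 3.00% were called at 8 h and 1.30% at 24 h, in either direction. For 32 respiratory chain genes 0 were called at 8 h (limma, 14 at an unadjusted p below 0.05), yet 32 of 32 lay below 0, with a median of -0.20. These include Etfdh, which is also counted in the list of mitochondrial fatty acid oxidation. At 24 h 31 of 32 lay below 0, with a median of -0.17 and 0 called (7 at an unadjusted p below 0.05). For 20 genes of mitochondrial fatty acid oxidation 19 lay below 0 at each time, with medians of -0.24 and -0.22 and 0 called (6 and 3 at an unadjusted p below 0.05). No gene was called between genotypes among 14 of fatty acid uptake and lipolysis, 12 of mitochondrial biogenesis or 16 of fatty acid elongation and synthesis at either time (limma, 3, 2 and 2 at an unadjusted p below 0.05 at 8 h, and 2, 0 and 3 at 24 h). Their medians at 8 h were 0.00, 0.00 and -0.04. Among all 23709 probe sets tested, an unadjusted limma p of 0.0435 ranked 3432 at 8 h, and 0.0498 ranked 3228 at 24 h. Small counts at an unadjusted p below 0.05 are thus no sign of a difference in a list.

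No white adipocyte marker passed the test. None of 13 was called between genotypes (limma, 3 at an unadjusted p below 0.05 at 8 h and 0 at 24 h), where 3.00% of all genes tested were called at 8 h and 1.30% at 24 h. The median log2 difference was -0.01 at 8 h and -0.09 at 24 h. The mean log2 value of the white markers lay between 11.73 and 12.07 on all 12 arrays, a range far narrower than that of the brown adipocyte genes. Differences of opposite sign cancel in this mean. The 3 markers at an unadjusted p below 0.05 at 8 h went both ways, Agt by -0.68, Cebpa by 0.34 and Retn by 0.30 (limma). Fabp4, the fatty acid binding protein of all adipocytes, differed by -0.01 (SE 0.04) at 8 h and Adipoq, which encodes adiponectin, by -0.12 (SE 0.08). Cidec, a Cidea relative counted both here and in the list enriched in brown fat, differed by 0.15 (SE 0.13), and Cideb by -0.46 (SE 0.20, adjusted p = 0.300). After each gene was centred on its own mean, the brown members minus the white markers stood at -0.20, -0.44 and -1.05 in wild type and 0.75, 0.22 and 0.00 in null at 8 h, with no overlap. At 24 h they stood at 0.38, 0.21 and -0.69 in wild type and 0.77, -0.17 and 0.23 in null, with overlap.

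Fabp3, Cox7a1, Cox8b and Cpt1b are also muscle genes, and muscle markers read higher in wild type, the opposite direction, with none passing the test. Of 21 tested skeletal muscle markers, 21 were above 0 at 8 h and 19 at 24 h, with median log2 differences of 1.65 and 1.60 and 0 called (limma, 3 at an unadjusted p below 0.05 at each time). Among all genes tested, 3.00% were called at 8 h and 1.30% at 24 h. Over the 22 muscle markers with a probe set, the mean log2 value was 10.80, 9.16 and 9.90 in wild type and 9.55, 6.33 and 8.89 in null at 8 h, and 11.42, 8.88 and 9.79 in wild type and 9.72, 8.02 and 8.54 in null at 24 h. All 22 were above the array median on at least some arrays, and null 8 h pool 2 held the least. Muscle markers thus read higher on average in the group where Fabp3 and Cox7a1 were lower, and its part in the differences of Cox8b, Fabp3, Cox7a1 and the shared Cpt1b probe set was not tested.

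Markers of other cell types were also called between genotypes, where 3.00% of all genes tested were called at 8 h and 1.30% at 24 h. Of 12 epithelial markers, Krt8 (1.74-fold), Krt18 (1.31-fold) and Cldn4 (1.54-fold) were called lower in wild type at 8 h, and Cdh1 (1.81-fold), Krt7 (1.38-fold), Cldn3 (1.99-fold) and Cldn7 (2.28-fold) higher in wild type at 24 h. Their mean log2 value ran from 9.28 to 9.59 in wild type and 9.44 to 9.69 in null at 8 h, and from 9.46 to 9.86 and 8.93 to 9.18 at 24 h. Of 10 endothelial markers, Vwf was called higher in wild type at 8 h (1.78-fold) and 0 at 24 h (limma, 2 at an unadjusted p below 0.05). Vwf went against its list at 8 h: the other 9 lay below 0, and the median was -0.22 (limma, 4 of the 10 at an unadjusted p below 0.05). At 24 h 7 lay above 0 and 3 below, with a median of 0.07. None of 7 macrophage, 8 lymphocyte or 3 Schwann and nerve genes was called between genotypes (limma, 1 macrophage gene at an unadjusted p below 0.05 at 24 h and 0 otherwise). The part of these cell types in the brown adipocyte values was not tested.

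**Figure D4:**
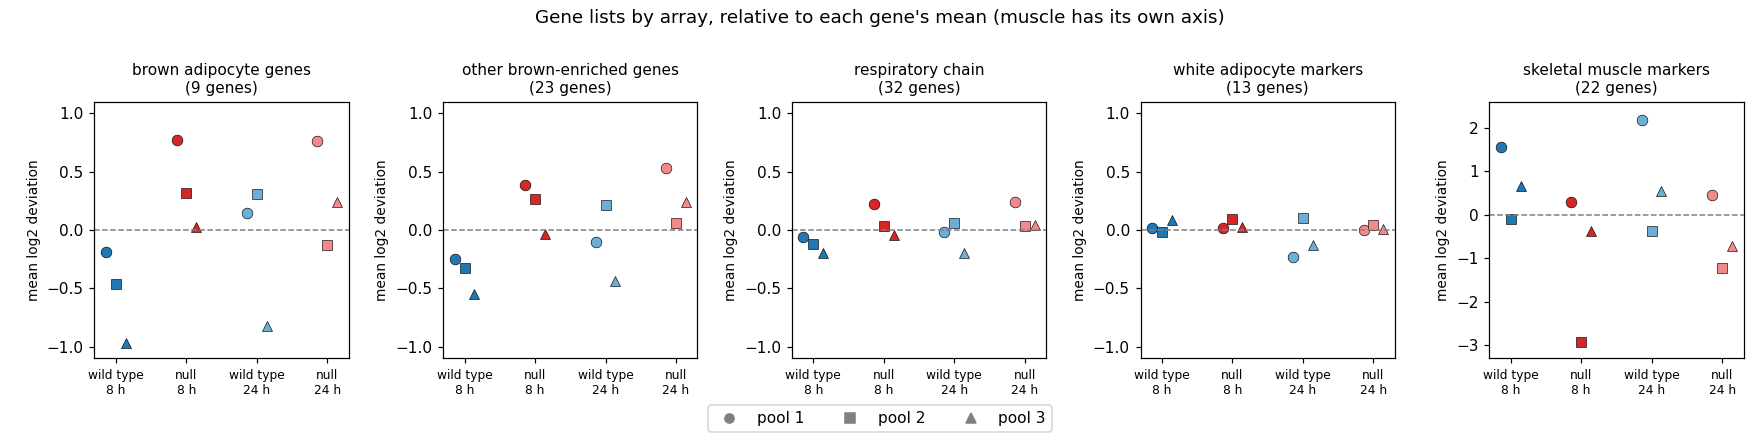
Mean log2 deviation of each gene list from its genes' own means (vertical axis) on each of the 12 arrays, by group; points are pools. The brown adipocyte genes run from -0.97 in wild-type 8 h pool 3 to 0.77 in null 8 h pool 1, while the white adipocyte markers stay between -0.23 and 0.10.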

How the data were processed

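Total RNA of mammary gland pools was hybridised to Affymetrix arrays, per the labels. The table of values deposited by the authors was taken to be on a log2 scale from its range; MAS5 is named in the submitters' processing notes, and what it did, its version and any scaling or centring have no source here. Scanner files were not used here. Gene names came from the platform's annotation table: 34945 had 1 gene symbol, 932 several and 9160 none, and 64 controls were left out.

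Probe sets whose value exceeded the array's median on 3 or more of 12 arrays (23709 probe sets, 12002 genes) were fitted with limma 3.58.1 (R 4.3.3) as 4 group means with a trended prior and 8 residual degrees of freedom. P-values were Benjamini-Hochberg adjusted over all probe sets tested, and an adjusted p below 0.05 was called. Unadjusted p-values below 0.05 were common over all probe sets tested. By limma, a p of 0.0435 ranked 3432 at 8 h, 0.0498 ranked 3228 at 24 h and 0.0427 ranked 1174 in the interaction. Over time, 0.0455 ranked 4864 in wild type and 0.0425 ranked 4647 in null. The fit was tested on simulated data. The number of arrays limits the precision.

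The members and the gene lists were chosen with earlier results of these data known. Some genes stand in more than 1 list, among them Cidec, Etfdh, Acot2 and Ppara, so the lists are not independent. The genes named are the members, a set list of relatives, up to 4 called genes of each list in a comparison, and the 10 and 5 genes outside the set most correlated with the members' mean and with Ucp1. The labels state no pairing by pool number. Correlations of deviations from group means, between pools of the same number in the 2 genotypes, ran from -0.03 to 0.13 at 8 h and from -0.04 to 0.43 at 24 h. They ran from -0.01 to 0.45 between the wild-type groups. Between the null groups they ran from 0.26 to 0.52, and there the replicate block changed no call of a member. Whether pools of 1 number share a batch is not known. Alternatives were the filter, prior, floor, normalization, array weights, groups fitted, probe set rule, replicate block and each array left out. Promoters come from RefSeq (GRCm38.p6). Python 3.11.15 and matplotlib 3.10.9 drew the plots.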

Additional observations from a re-analysis of the deposited data

Results flagged for a closer look

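One dim Prdm16 probe set (1429308_at), which the filter left out of the tests, carried a difference at 8 h that the other Prdm16 probe sets did not show at that size. It read 4.20, 4.07 and 3.91 in wild type and 5.92, 5.64 and 5.71 in null, a log2 difference of -1.70 with groups that did not overlap (adjusted p = 0.0146 when limma was run on all probe sets). At 24 h it read 4.73, 5.54 and 3.79 in wild type and 5.73, 5.42 and 5.62 in null, with overlap. It was above the array median on 1 of 12 arrays, so its values lie near the low end of the scale.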

How the results depend on the processing

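With single arrays left out, the median log2 difference over the members ran from -1.39 to -0.88 at 8 h, from -0.78 to -0.21 at 24 h, from -0.21 to 0.52 in the interaction, from 0.06 to 0.80 over time in wild type and from -0.15 to 0.18 over time in null. Under the other settings it ran from -1.19 to -0.82, -0.43 to -0.16, 0.02 to 0.25, 0.11 to 0.37 and -0.04 to 0.11. Of the 9 genes, 3 were called at 8 h, 1 with a robust prior (Cidea; Ucp1 had an adjusted p of 0.0536 and Fabp3 of 0.0939) and 0 to 3 when each array was left out in turn. Fabp3 was also lost with the mean of its probe sets (adjusted p = 0.0965), and Cox7a1 was called with array weights (0.0393). With array weights 1 member (Dio2, adjusted p = 0.0218) was called over time in null, where the unweighted fit called 0. Without single arrays, 0 to 3 were called over time in wild type and 0 in the other comparisons. Pool numbers are no stated pairing between genotypes. With the replicate block 5 members were called at 8 h (Cox7a1 at 0.0065 and Elovl3 at 0.0052 added), 1 at 24 h (Elovl3, 0.0125) and 3 over time in wild type (Ucp1 0.0222, Cidea 0.0155, Cox7a1 0.0479); it changed no other call of a member.

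Directions that turned belonged to differences that were not called: with array weights Cox8b (0.023) and Prdm16 (0.0029) at 8 h and Fabp3 (0.15) at 24 h, and with the mean of probe sets Ppargc1a at 24 h (-0.0093) and Prdm16 over time in wild type (0.050). With single arrays left out, Cox8b ranged from -0.34 to 0.022 and Ppargc1a from -0.090 to 0.36 at 8 h, and Fabp3 from -0.87 to 0.19, Cox8b from -0.36 to 0.051 and Ppargc1a from -0.12 to 0.38 at 24 h. The cause was not tested. Over all tested probe sets, 729 were called at 8 h (320 to 889 without single arrays, 334 to 4017 under the other settings), 262 at 24 h (126 to 704, and 71 to 685), 34 in the interaction (12 to 45, and 16 to 169), 1238 over time in wild type (239 to 1328, and 461 to 1815) and 1044 over time in null (232 to 1202, and 348 to 5775). With no detection calls, signal over background is unknown for dim probe sets.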
